A study of Homo sapiens with 8 samples.

Results

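The CCN family is a group of secreted matricellular proteins, that is, proteins that sit in the extracellular matrix and signal to cells rather than hold the matrix together. It has 6 members, CCN1 to CCN6, and each was measured by 1 probe set among the 33297 of the array, chosen by the gene symbol in the platform annotation. The members are 6 of 18417 genes tested. The family was selected on earlier results of this same comparison, in which CCN1 stood out, so its suspended-minus-attached differences are given here as a description with their errors and no p-value, and counts of calls among the members stand for reference only. BT549, an established human breast cancer line of the triple-negative type, was grown on ordinary tissue culture plates (attached, 4 arrays) or over a poly-HEMA coating, which gives cells no hold (suspended, 4 arrays). All cultures were kept in RPMI with 10% serum and insulin, no drug or genetic change was applied, and every culture comes from 1 cell line. Suspended cells were cultured for 24 h, whereas the labels give both 24 h and 48 h for attached cells, so if 48 h is right, culture time and attachment cannot be told apart.

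CCN proteins are built from up to 4 kinds of cysteine-rich module: one like the insulin-like growth factor binding proteins, a von Willebrand type C module, a thrombospondin type 1 repeat and a C-terminal cystine knot, the last of which CCN5 lacks. They bind integrins, heparan sulfate proteoglycans and LRP receptors, and through these affect adhesion, migration and matrix production. CCN1 and CCN2 are textbook targets of the transcriptional co-activators YAP and TAZ, which act through the TEAD DNA-binding proteins and respond to cell spreading and actin tension; serum response factor (SRF) and transforming growth factor beta acting through SMAD proteins also induce them.

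Across the 8 arrays the log2 signals had array medians between 6.02 and 6.07, and arrays correlated at r = 0.993 to 0.996 within a group and 0.987 to 0.994 between groups. Arrays have no read depth, and the number of arrays, 4 against 4, limits the precision. Mesenchymal genes fixed for checking the line (VIM, CDH2, ZEB1, FN1, SNAI2 and SPARC) all lay above 88.7% or more of genes by mean signal, while of the luminal or epithelial genes ESR1, PGR and CDH1 lay below the 25th percentile of gene means, and EPCAM, KRT8 and GATA3 lay above 27.7%, 49.7% and 85.5% of genes. Some markers also moved with the groups. Of the 6 mesenchymal genes SNAI2 (log2 difference 1.23), SPARC (0.37) and ZEB1 (0.27) were called higher and CDH2 (−0.38) lower. VIM (−0.06) and FN1 (0.09) were not called. Over all genes 10.4% were called higher and 10.2% lower. The log2 of the summed mesenchymal signal was 13.16 to 13.21 attached and 13.46 to 13.50 suspended, so this rise is not one of every gene in the set. Of 6 luminal or epithelial genes GATA3 was called higher (log2 summed signal 8.92 to 8.95 attached, 9.20 to 9.28 suspended), and of 6 markers of leukocytes, endothelium and fat CD68 was called lower (9.02 to 9.10 attached, 8.82 to 8.90 suspended). Of those markers PTPRC and PECAM1, the defining leukocyte and endothelial genes, lay below the 25th percentile with differences of 0.00 and 0.01, CDH5, ADIPOQ and PLIN1 lay above 29.6%, 35.1% and 37.0% of genes, and CD68 above 82.9%. The part of these shifts in the CCN values was not tested.

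The family did not shift as a unit when BT549 cells were kept from attaching. CCN1 signal was 3.80-fold lower in suspension, CCN3 signal was 1.92-fold higher, CCN2 was 1.29-fold lower, and CCN4, CCN5 and CCN6 differed by at most 1.19-fold. The distance between the lowest and the highest member's log2 difference was 2.87. By mean, 4 members were lower and 2 higher, and the median of their log2 differences was −0.18, beside 0.02 over all tested genes. Folds are ratios of array signals without a background measure, so they are not ratios of transcript amounts. In bulk RNA, fewer cells with a transcript and less of it per cell cannot be told apart.

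CCN1, formerly CYR61, encodes an integrin ligand made quickly when cells meet serum or a stiff matrix. Its log2 signal in the 4 attached arrays was 9.53, 9.54, 9.65 and 9.58. In the 4 suspended arrays it was 7.70, 7.78, 7.51 and 7.61. The groups were far apart: the highest suspended array lay 1.75 below the lowest attached one, while the arrays of a group spanned 0.12 attached and 0.28 suspended. The group means were 9.58 ± 0.05 and 7.65 ± 0.12 (SD, n = 4 each), a log2 difference of −1.93 (SE 0.062). This was the lowest difference of all 18417 genes, and 3 genes had a larger one in absolute size. With each array left out in turn the difference stayed between −1.97 and −1.88.

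CCN2, formerly CTGF or connective tissue growth factor, is the family's best known driver of fibrosis and shares the YAP, SRF and SMAD inputs named above with CCN1. Its log2 signal was 10.29, 10.47, 10.52 and 10.43 in the attached arrays. It was 10.07, 10.07, 10.05 and 10.02 in the suspended arrays. The groups did not overlap, but the gap between them was 0.22, about the span of the attached arrays alone (0.23), of which replicate 1 was the lowest. The means were 10.43 ± 0.10 and 10.05 ± 0.02 (SD, n = 4 each) and the log2 difference was −0.37 (SE 0.055), between −0.42 and −0.34 with an array left out. Of all genes 5.79% had a larger absolute difference. The difference of CCN1 was lower than that of CCN2 by 1.56 on the log2 scale. CCN2 gave a bright signal in both conditions, above 97.6% of genes by mean; no statement on saturation can be made from these values.

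The sequence before the start site of CCN2 is shown because the gene is a known TEAD target, beside that of CCN6, the other member with a sequence in the RefSeq promoter table used here (2 of 6 members matched). Both are from GRCh38.p14, from 250 bases before the start site to 5 bases after it, read 5′ to 3′ on the gene's strand: CCN2 at chr6:131951368-131951622 on the minus strand and CCN6 at chr6:112053854-112054108 on the plus strand. Capitals mark matches, on either strand, to the TEAD core GGAATG or to the TATA box TATAAA.
CCN2: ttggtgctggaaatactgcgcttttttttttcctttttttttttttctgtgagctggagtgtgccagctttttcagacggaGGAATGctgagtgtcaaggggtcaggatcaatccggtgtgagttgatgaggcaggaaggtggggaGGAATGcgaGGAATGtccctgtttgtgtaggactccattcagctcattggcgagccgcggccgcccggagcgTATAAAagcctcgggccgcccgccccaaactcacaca
CCN6: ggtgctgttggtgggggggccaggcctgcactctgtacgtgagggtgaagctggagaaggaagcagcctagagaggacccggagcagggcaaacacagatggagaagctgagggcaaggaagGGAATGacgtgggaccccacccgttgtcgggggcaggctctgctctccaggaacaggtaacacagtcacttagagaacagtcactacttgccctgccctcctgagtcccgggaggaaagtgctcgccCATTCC

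The CCN2 sequence held 3 TEAD cores on the gene's strand, 169, 104 and 95 bases before the start site counted at their first base, and a TATA box 32 bases before it. The CCN6 sequence held a TEAD core 128 bases before the start site and another on the opposite strand that begins 1 base before it. That start site lies 1291 bases inside the outermost CCN6 gene start of the same assembly, so other CCN6 transcripts can begin elsewhere. Among the 35116 promoters of 300 bases in the table, 14.0% held at least 1 TEAD core, 1.37% at least 2 and 0.128% at least 3, and 11.5% held a TATA box. Matches to the SMAD string CAGACA (in 16.9% of all promoters) numbered 0 in both sequences over the whole 300 bases. So did matches to the AP-1 site TGANTCA (7.71%) and the CArG box bound by SRF (1.29%). Other forms of a SMAD site were not searched for, so this 0 does not speak to SMAD sites in general. The marked matches do not overlap each other. A match is a run of letters and no measure of binding.

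CCN3, formerly NOV, encodes a family member often described as opposing CCN2, with roles in growth restraint and cell adhesion. Its log2 signal was 8.31, 8.30, 8.37 and 8.42 in the attached arrays. In suspension it was 9.27, 9.36, 9.27 and 9.26. All 4 suspended arrays were higher than every attached array, with a gap of 0.84 against spans of 0.12 and 0.09 within the groups. The means were 8.35 ± 0.06 and 9.29 ± 0.04 (SD, n = 4 each), and the log2 difference was 0.94 (SE 0.048), the 54th highest of all genes; 0.434% of genes had a larger absolute difference. With an array left out it was 0.92 to 0.96.

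CCN4 and CCN5, formerly WISP1 and WISP2, were first described as genes induced by WNT1 signalling. CCN4 signal was 5.99, 5.97, 5.90 and 5.85 attached and 5.78, 5.69, 5.86 and 5.97 suspended. The groups overlapped, since suspended replicates 3 and 4 lay within the attached range, and the log2 difference was −0.10 (SE 0.064). CCN5 signal was 7.01, 7.04, 7.01 and 6.87 attached and 7.10, 6.88, 7.04 and 7.19 suspended. Here too the groups overlapped, with a difference of 0.07 (SE 0.068). The differences were 1.58 (CCN4) and 1.06 (CCN5) times their SE, and 46.2% (CCN4) and 58.8% (CCN5) of all genes had a larger absolute difference.

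CCN6, formerly WISP3, is known for its loss in inflammatory breast cancer and, when mutated in the germ line, for an inherited cartilage disease. Its log2 signal was 4.997, 5.13, 5.18 and 5.33 attached and 4.83, 4.97, 5.02 and 4.82 suspended. Of the suspended arrays 3 lay below all attached arrays, while suspended replicate 3 lay just above attached replicate 1. The means were 5.16 ± 0.14 and 4.91 ± 0.10 (SD, n = 4 each), a log2 difference of −0.25 (SE 0.074). The mean over the 8 arrays, 5.03, is below the 25th percentile of gene means, 5.28, which serves as a reference for low signal since no detection call was used. CCN6 is the member of the family below it.

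**Figure D1:**
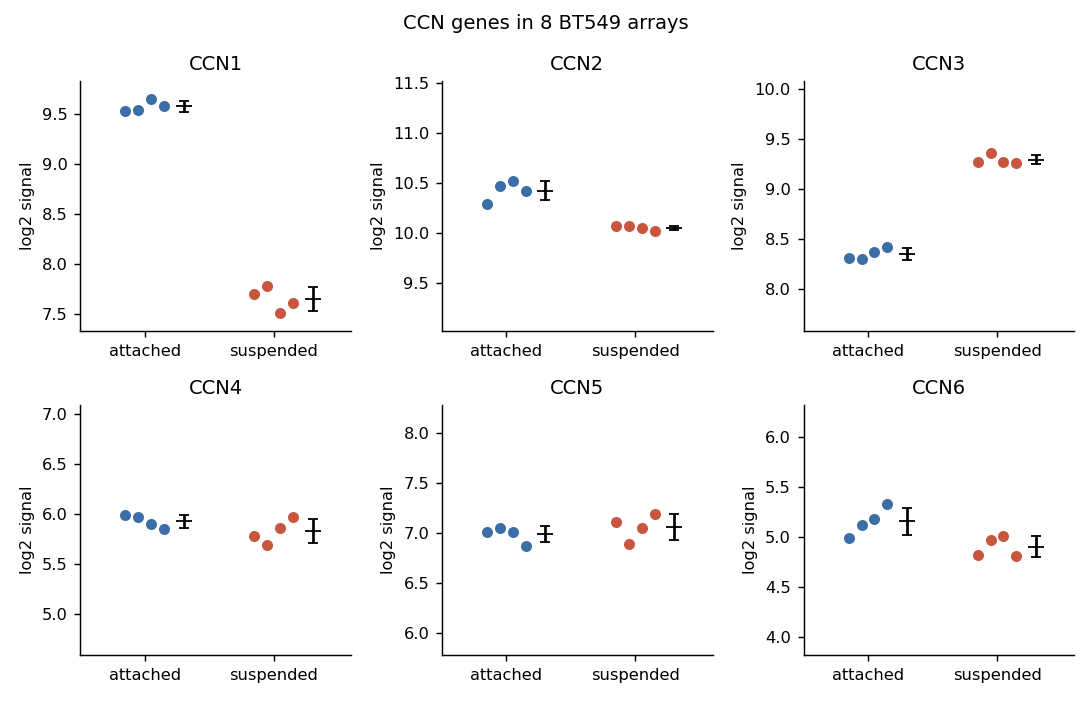
Log2 signal (vertical axes, each spanning 2.5 log2 units) of the 6 CCN genes in the 4 attached (blue) and 4 suspended (red) arrays; points are arrays in order of replicate number, and the bar beside them is the mean ± SD. CCN1 drops from 9.58 to 7.65, CCN3 goes from 8.35 to 9.29, CCN2 shows a small gap, and the groups of CCN4, CCN5 and CCN6 overlap.

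In the limma fit over all genes, with an adjusted p threshold of 0.05, CCN1, CCN2 and CCN6 were past the threshold as lower and CCN3 as higher. Over all genes 20.6% were called, 10.2% lower and 10.4% higher. The groups did not overlap for 3 members, CCN1, CCN2 and CCN3, and for 24.8% of all genes. Since the family was chosen with this comparison known, these counts are set beside the shares of all genes without being read as a result. The CCN6 value was past the threshold by little: the call was lost in the fit with a replicate block, and when attached replicate 2, 3 or 4 or suspended replicate 1 or 4 was dropped, with differences of −0.19 to −0.30 over all 8 such fits.

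**Figure D2:**
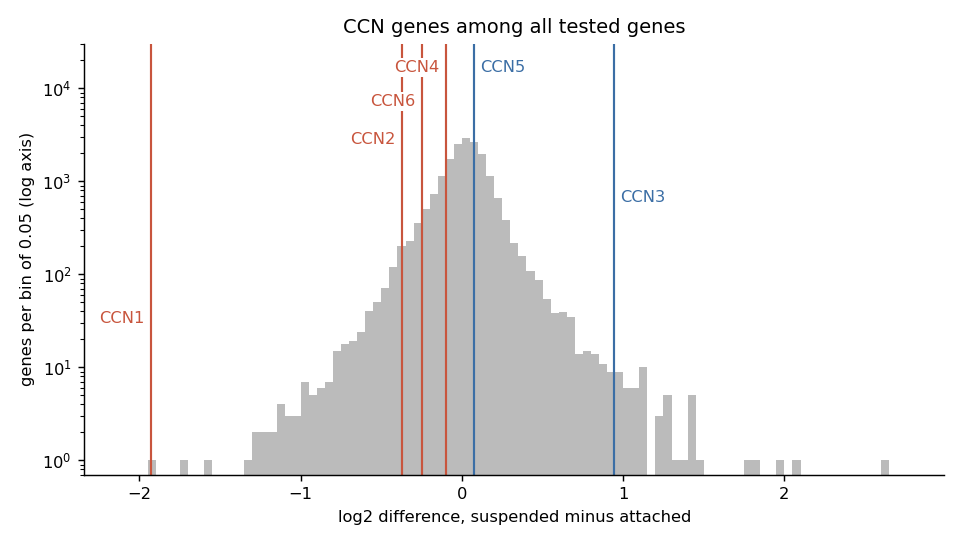
Histogram of the log2 difference, suspended minus attached (horizontal axis), of 18417 genes, with the number of genes per bin on a log axis; lines mark the CCN genes, red where lower and blue where higher in suspension. CCN1 at −1.93 is at the lower end of all genes, CCN3 at 0.94 is in the upper tail, and CCN4 at −0.10 and CCN5 at 0.07 are in the bulk.

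Genes that CCN1 and CCN2 share regulators with were compared next. All 7 lists of this report were drawn up from background knowledge with earlier results of these data known, so their counts are a description. Of 20 further genes of a YAP target signature 12 fell and 2 rose (limma adjusted p under 0.05 over all genes; 10.2% of all genes fell and 10.4% rose), with a median log2 difference of −0.20 beside 0.02 for all genes. The largest falls named here were IGFBP3, a growth factor carrier (−1.30, SE 0.073), CRIM1, a membrane protein with von Willebrand type C modules (−1.24, SE 0.047), CCDC80, a matrix protein (−1.08, SE 0.046), and AXL, a receptor kinase (−1.04, SE 0.048), each with an adjusted p of at most 4.06e-07. TGFB2, a TGF-beta ligand (0.72, SE 0.048), and NT5E, an ectonucleotidase (0.34, SE 0.044), rose. The CCN1 difference was lower than that of all 20, whereas 8 of the 20 had a lower difference than CCN2. ANKRD1, often read together with CCN1 and CCN2 as a YAP reporter and singled out here after its value was seen, was at 4.92 ± 0.06 attached and 4.89 ± 0.12 suspended (SD, n = 4 each), below the low-signal reference.

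The regulators themselves moved in both directions at the transcript level. Of 23 tested, 9 rose and 3 fell, while over all genes 10.4% rose and 10.2% fell. The median log2 difference was 0.04, beside 0.02 for all genes. YAP1 signal was 9.54 ± 0.01 attached and 9.57 ± 0.05 suspended (difference 0.03, SE 0.044, limma adjusted p = 0.724), while WWTR1, which encodes TAZ, rose 1.66-fold (log2 0.73, SE 0.054, adjusted p = 3.23e-06). Of the TEAD genes, TEAD2 rose (0.29, adjusted p = 0.00225) and TEAD4 fell (−0.31, adjusted p = 0.00265). TEAD1 (0.11, adjusted p = 0.119) and TEAD3 (−0.07, adjusted p = 0.407) did not pass, and TEAD1 did pass after quantile normalization, with a mean-variance trend, or when only genes above the median signal were tested. NF2, which encodes merlin, an upstream inhibitor of YAP, fell 1.70-fold (−0.77, SE 0.058, adjusted p = 4.08e-06), and the Hippo kinase gene STK3 fell by 0.26 on the log2 scale (adjusted p = 0.00858). VGLL4, a TEAD-binding competitor of YAP (0.50), and the receptor gene TGFBR1 (0.39) rose. The remaining rises were SMAD3 (0.43), TGFB1 (0.39), TGFBR2 (0.37), MRTFB (0.28) and SAV1 (0.26). Thus the regulators called from the TGF-beta and SMAD branch all rose, and the part of this in the CCN values was not tested. Transcript levels carry no information on where YAP and TAZ proteins were in the cell.

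Targets of SRF and its actin-sensing partners, the MRTF proteins, fell where they changed. Of 17 tested 8 fell and 0 rose (8 and 1 at unadjusted p under 0.05), while over all genes 10.2% fell and 10.4% rose. The median log2 difference was −0.12, beside 0.02 for all genes. TAGLN (−1.31, SE 0.060), CALD1 (−0.97, SE 0.066), TPM1 (−0.82, SE 0.053) and FHL2 (−0.29, SE 0.045), all tied to actin filaments or actin signalling, had the smallest adjusted p among them (limma, at most 0.000815), and SRF itself fell by 0.24 on the log2 scale (adjusted p = 0.0111). The one gene higher at unadjusted p was EGR1, a transcription factor gene singled out after its value was seen (0.18, adjusted p = 0.0992), which was called after quantile normalization, with a mean-variance trend, with genes above the median signal, and when attached replicate 2 was dropped (0.14 to 0.24 over all 8 such fits).

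SMAD targets went both ways. Of 13 tested, 5 rose and 3 fell, while over all genes 10.4% rose and 10.2% fell. The median log2 difference was 0.09, beside 0.02 for all genes. The falls were LTBP2, a TGF-beta binding matrix protein (−0.92, SE 0.062), TGFBI, a secreted adhesion protein (−0.66, SE 0.047), and SKIL, a SMAD repressor (−0.28, SE 0.063). The rises were ID3 (0.45) and ID1 (0.41), inhibitors of helix-loop-helix factors, SKI (0.36), SMAD7, an inhibitory SMAD (0.34), and COL1A1, a collagen chain (0.22), with limma adjusted p of 0.0245 or less. The COL1A1 call was lost in the fit with a replicate block and when attached replicate 1, 3 or 4 was dropped (0.16 to 0.25 over all 8 such fits).

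CCN proteins signal through integrins and LRP co-receptors, and 13 of 15 listed receptor genes were tested. Of these 3 rose: ITGA6, the laminin-binding integrin subunit that CCN1 also uses (8.83 ± 0.07 to 9.55 ± 0.03, 1.65-fold, limma adjusted p = 1.91e-06), LRP1 (0.61, SE 0.050) and LRP6 (0.39, SE 0.048). Falls were recorded for ITGB5 (−0.22, SE 0.047) and ITGB1 (−0.18, SE 0.055). Over all genes 10.4% rose and 10.2% fell. The ITGB1 call (adjusted p = 0.0365) was lost after quantile normalization, with array weights, with a replicate block, and when any of the 4 attached replicates, suspended replicate 1 or suspended replicate 4 was dropped (−0.22 to −0.15 over all 8 such fits). ITGA5, the fibronectin receptor subunit, was just short of the threshold (−0.15, SE 0.050, adjusted p = 0.0541) and was called lower after median centring, with either filter on low signal, with a mean-variance trend and with array weights. The count of receptors called lower was accordingly 1 to 3 over the alternatives. ITGAV, the alpha subunit of several CCN-binding integrins, differed by 0.10 (SE 0.044, adjusted p = 0.158) and was not past the threshold. ITGA5 and ITGAV were singled out after their values were seen.

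Other genes that encode CCN-type modules, such as the IGFBP proteins and thrombospondins, moved in both directions where they changed. Of 18 tested 4 rose, namely HTRA1 (0.67, SE 0.063), SPON2 (0.64, SE 0.057), IGFBP5 (0.48, SE 0.053) and IGFBP4 (0.28, SE 0.049), and 2 fell, BMPER, a secreted BMP modulator (−0.75, SE 0.045), and THBS1, thrombospondin (−0.46, SE 0.055); the limma adjusted p was at most 0.0017. Over all genes 10.4% rose and 10.2% fell. IGFBP3 and CRIM1, which also carry such modules and fell further (above), are counted with the YAP signature and not here. Of 12 other matricellular genes 3 were called, a share near the 20.6% of all genes called: the rises were SPARC (0.37), THBS3 (0.32) and TNC (0.25, adjusted p = 0.0219), and 0 genes fell (3 and 1 at unadjusted p under 0.05). The TNC call was lost when attached replicate 1, suspended replicate 2 or suspended replicate 4 was dropped (0.19 to 0.29). The gene lower at unadjusted p was SMOC1 (−0.18, adjusted p = 0.0848), which was called with array weights, with a mean-variance trend, with genes above the median signal, and without suspended replicate 4 (−0.23 to −0.14).

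**Figure D3:**
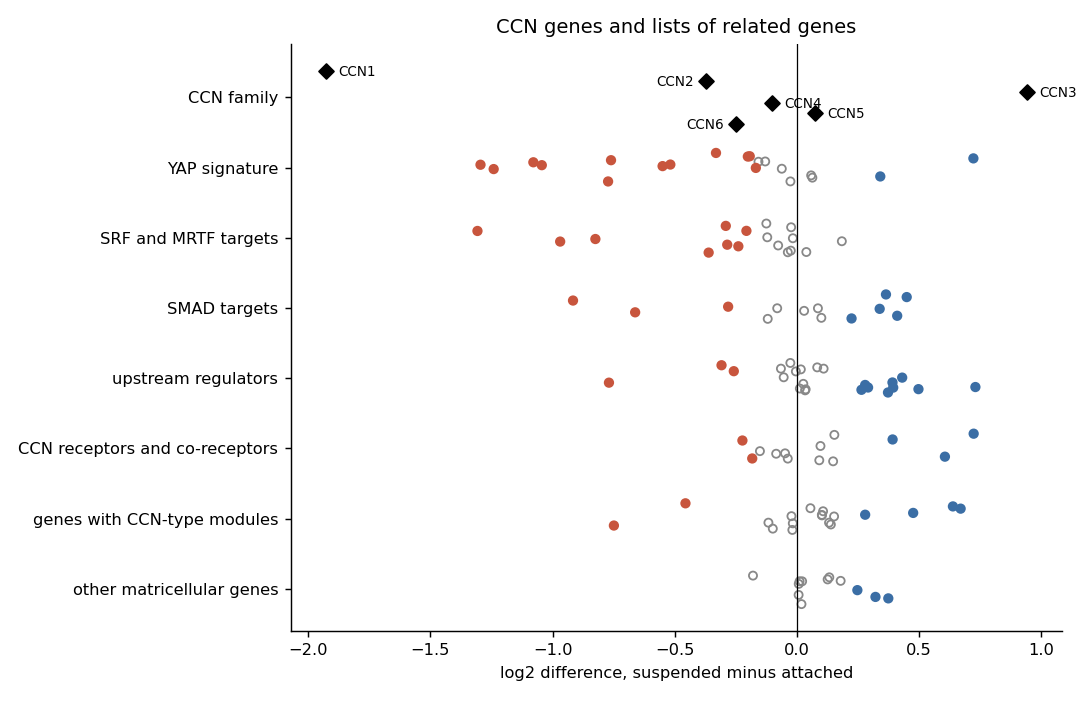
Log2 difference, suspended minus attached (horizontal axis), of the CCN genes (black diamonds) and of the tested genes of 7 lists; filled points passed limma's adjusted p threshold (red lower, blue higher), open points did not, and the vertical scatter has no meaning. The YAP and SRF lists hold 12 and 8 lower genes, the regulators 9 higher and 3 lower, and no listed gene reaches CCN1.

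The genes whose profile over the 8 arrays was most like that of a CCN member were found by the root mean square (RMS) difference between the log2 values after each gene was centred on its own mean. This measure follows the group difference as well as the scatter between arrays, and the genes were read from the same arrays. Nearest to CCN1 were NCEH1, a cholesteryl ester hydrolase (RMS difference 0.118), TGM2, tissue transglutaminase (0.205), TAGLN (0.321), IGFBP3 (0.325) and MARCHF4, a ubiquitin ligase (0.347). NCEH1 signal was 9.17, 9.12, 9.27 and 9.14 attached and 7.56, 7.45, 7.34 and 7.44 suspended. As for CCN1, attached replicate 3 was the highest and suspended replicate 3 the lowest of their groups. The other extremes differed. The lowest attached array was replicate 1 for CCN1 and 2 for NCEH1, and the highest suspended array was replicate 2 for CCN1 and 1 for NCEH1. CCN1 deviated from its own mean by an RMS of 0.967, more than 99.98% of genes.

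CCN3, whose own RMS deviation was 0.472, had closer neighbours. Since the measure follows the group difference, CCN1, with the lowest difference of all genes, has fewer genes that can lie near it. CDC25B, a phosphatase that promotes entry into mitosis, differed from it by an RMS of 0.028, with a log2 difference of 0.94 (SE 0.044), followed by NQO1, a quinone reductase (0.040), KAT2B, a histone acetyltransferase (0.045), GDF15, a stress cytokine (0.051), and MAP3K5, a stress-activated kinase (0.059). For CCN2, whose own RMS deviation was 0.196, the nearest genes were CDCA3 (0.036), PPIF (0.038), TMEM51 (0.041), MICB (0.041) and SLFN12 (0.043). Their log2 differences ran from −0.40 (MICB) to −0.36 (TMEM51). For CCN6, whose own RMS deviation was 0.163, the nearest genes were HAX1, AKTIP, TYRO3, ABCF2 and IWS1 at 0.047 to 0.054. HAX1 (adjusted p = 0.0529) and AKTIP (adjusted p = 0.0536) were not past limma's threshold, and the calls of TYRO3 and IWS1 were lost with some arrays left out.

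**Figure D4:**
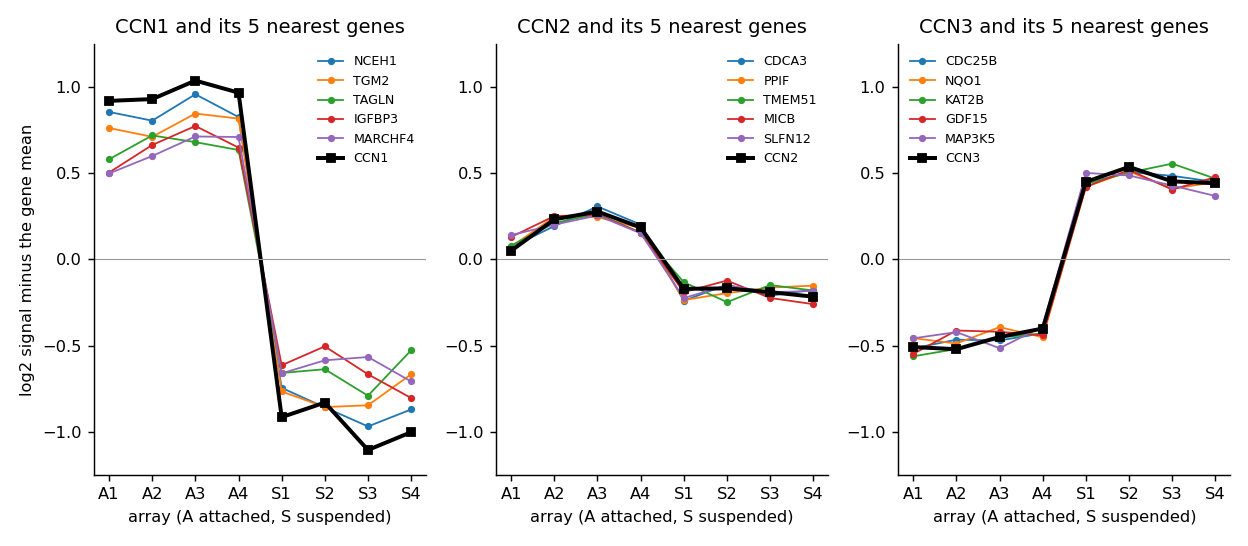
Log2 signal minus each gene's mean over the 8 arrays (vertical axis) by array (A1 to A4 attached, S1 to S4 suspended) for CCN1, CCN2 and CCN3 (black) and the 5 genes nearest to each by RMS difference. CCN1 moves farther than its neighbours (RMS differences of 0.118 to 0.347), while the lines of CCN3 and its neighbours (0.028 to 0.059) lie almost on each other.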

How the data were processed

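RNA from 4 attached and 4 suspended BT549 cultures was profiled on gene-level arrays. The authors deposited 1 table of log2 signals, 33297 probe sets by 8 arrays. No header or label states the scale, which was inferred from array maxima of 13.69 to 13.73. The software was Partek, per the submitters' processing notes; its version and steps (background, normalization, summarisation) were not given in the sources used here. The labelling kit in the labels is one made for small RNA, so the labelling used for these arrays is uncertain.

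Probe sets with 1 gene symbol (19460) were kept, and the probe set with the highest mean stood for a gene, giving 18417 genes; every CCN member had 1 probe set. The test was that of limma 3.58.1, run in R 4.3.3 (lmFit, eBayes, two-sided, no covariate), with Benjamini-Hochberg adjustment over all genes and a threshold of 0.05. Differences are suspended minus attached; SE is limma's moderated standard error. Members and lists were chosen with earlier results of these data known. The 7 lists held 124 entries, 116 of them tested. Named list genes are the 4 with the smallest adjusted p and all called genes where 5 or fewer moved in a direction; the 5 nearest genes are named for each member past the threshold, and YAP1, WWTR1, SRF and TEAD1 to TEAD4 whatever their values. ANKRD1, EGR1, ITGA5 and ITGAV are named outside this rule. So are SMAD3, TGFB1, TGFBR2, MRTFB and SAV1, which complete the regulators called. The procedure was tested on simulated arrays with 18417 genes, recovering 100 of 100 genes changed 2-fold and 55 of 100 changed 1.25-fold, with 9 unchanged genes called. Only these genes were changed, whereas 20.6% of genes were called in the data. The simulated noise was normal and independent between genes and arrays. Recovery and false calls in the real arrays can therefore differ from these counts. Promoter sequences are those of RefSeq, GRCh38.p14. A planned comparison of the CCN proteins was not analysed here. Alternatives were median centring, quantile normalization, 2 filters on low signal, averaging of probe sets, a mean-variance trend, array weights, the replicate number as a block, and leaving out each array. The samples are described as biological replicates of a single line, so p-values speak to these cultures.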

Additional observations from a re-analysis of the deposited data

Results flagged for a closer look

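CCN3 in the suspended arrays was the one CCN value set with an array apart from the others: replicate 2 was at 9.36 and the other 3 arrays at 9.26 to 9.27, a gap of 0.885 of the group's range, above Dixon's critical value for 4 samples at the 95% level. Of 12 sets of 4 arrays checked (6 genes, 2 groups) 1 stood out in this way, and chance gives about 1 in 20. The range concerned is 0.09 log2 units, and without suspended replicate 2 the CCN3 difference was 0.92 instead of 0.94.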

How the results depend on the processing

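The differences of all 6 CCN genes kept their direction and moved by less than 1 SD between arrays under every alternative that gave a value; the filters on low signal left no value for CCN6 (25th percentile and median) and CCN4 (median). With each array left out in turn CCN1 stayed at −1.97 to −1.88, CCN2 at −0.42 to −0.34, CCN3 at 0.92 to 0.96, CCN4 at −0.15 to −0.06, CCN5 at 0.03 to 0.13 and CCN6 at −0.30 to −0.19. The split of all called genes by direction depended on the normalization: 1910 higher and 1877 lower in the main fit. Median centring gave 1536 higher and 2074 lower, and quantile normalization 2026 and 1689. The shares of all genes set beside the lists are those of the main fit. The number of genes called was 2934 to 3752 with an array left out, against 3787 with all. With the replicate number as a block it was 3022; same-numbered arrays correlated at r = −0.198 to 0.0416 in their deviations from the group means and 0 of 8 arrays correlated best with their own number, so the numbers were not taken to pair cultures. Counts of list genes that moved by more than 1.5 times, or from 0, were these. SRF and MRTF targets called higher went from 0 to 1 after quantile normalization, with the median filter and with the trend (0 to 1 with an array left out). Receptors called lower went from 2 to 1 after quantile normalization and with the replicate block (1 to 2 with an array left out), and to 3, within 1.5 times, with median centring, both filters and the trend. Other matricellular genes called lower went from 0 to 1 with the median filter, the trend and array weights (0 to 1 with an array left out). Smaller moves were seen elsewhere, among them YAP signature genes called lower (12), with 9 under the replicate block and 14 with centring, the 25th percentile filter or the trend. The cause was not tested. No background measure was used, so differences of genes with low signal, CCN6 among them, are the least certain.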
